A study of Mus musculus with 9 samples.

Results

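The genes described here build the kinetochore, run the spindle assembly checkpoint and drive the step into anaphase. They are 52 listed symbols, taken by name from the joint table of raw counts, of which 51 have a row among its 19991 genes; Rod1 has none. All 51 passed the filter on low counts and stand among the 15834 genes tested. The libraries are bulk RNA from whole testis of ICR mice, an outbred stock, aged 8 weeks. Mice were injected with AZ82 at 1 µM, with CW069 at 50 µM or with PBS (Control), and each group has 3 libraries. AZ82 and CW069 are inhibitors of KIFC1, a kinesin-14 motor that walks to microtubule minus ends and bundles spindle microtubules, and the 2 were given at different doses. Whether samples of a group come from separate animals is not stated. A p-value here thus weighs a difference between groups against the scatter of samples within groups, part of which can be technical. No batch or time after injection is given.

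At each division, microtubules attach to kinetochores, protein plates on the centromeres. A kinetochore without attachment recruits Mad and Bub proteins, which hold back Cdc20 and keep the anaphase-promoting complex from tagging securin and cyclin B for destruction. In the testis this machinery serves dividing spermatogonia and the meiotic divisions of spermatocytes, where sister kinetochores must first move together and shugoshin guards centromeric cohesin. KIFC1 works on the same spindles, and whether its inhibition left a trace in the transcripts of this machinery is the question the comparisons address.

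The promoters of the genes are shown first, because a pair of short motifs links many cell cycle genes: the cell cycle genes homology region (CHR, TTTGAA, or TTCAAA on the other strand) and the CCAAT box (CCAAT, or ATTGG on the other strand). RefSeq promoters of GRCm38.p6 matched 44 of the members, with 51 promoters in all because some genes have several. In the 100 bases before the annotated start, 13.7% of these promoters held TTTGAA on either strand, against 3.42% of the 15956 promoters of tested genes. CCAAT on either strand was in 45.1% of member promoters, against 21.2%. Both lay together in 11.8%, which is 6 promoters of 6 genes (Cdc20, Kntc1, Prc1, Bub3, Cenpn and Espl1), against 0.902% of the promoters of tested genes. Over 250 bases before the start the shares with both were 13.7% and 4.28%. The 4 of these windows with the fewest exon bases are printed here from 5′ to 3′ along the gene, ending at the base before its start, with both motifs in capitals.
Cdc20: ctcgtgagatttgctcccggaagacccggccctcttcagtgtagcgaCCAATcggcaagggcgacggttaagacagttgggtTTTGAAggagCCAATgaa
Kntc1: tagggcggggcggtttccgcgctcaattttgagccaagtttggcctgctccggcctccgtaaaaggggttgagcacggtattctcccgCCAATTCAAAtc
Cenpn: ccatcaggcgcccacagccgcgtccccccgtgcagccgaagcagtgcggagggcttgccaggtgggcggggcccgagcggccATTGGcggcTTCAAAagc
Espl1: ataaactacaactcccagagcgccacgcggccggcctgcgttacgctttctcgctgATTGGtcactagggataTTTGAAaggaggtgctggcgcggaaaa
The Cdc20 window is chr4:118437344-118437443, minus strand, and its TTTGAA begins 18 bases before the start. The Kntc1 window is chr5:123749626-123749725, plus strand, and its TTCAAA begins 8 bases before the start and shares 1 base with the CCAAT beside it. The Cenpn window is chr8:116921640-116921739, plus strand, where TTCAAA begins 9 bases before the start. The Espl1 window is chr15:102296193-102296292, plus strand, where TTTGAA begins 27 bases before the start. By GENCODE vM21, whose exons can begin before the RefSeq start, the last 9 bases of the Cdc20 window are exonic, as are the last 10 of Kntc1, the last 10 of Cenpn and the last 27 of Espl1. The TTCAAA or TTTGAA of Kntc1, Cenpn and Espl1 thus lies in an annotated exon, and that of Cdc20 before one. The windows not printed held more exon bases, 100 for Bub3 and 126 for Prc1 when summed over overlapping genes. Exon bases in the windows of all tested genes were not counted. A match is a string of letters, and binding at these promoters was not measured here.

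Totals ran from 13856070 to 18102593 counts per library, and the members together held 0.289% to 0.305% of counts with AZ82, 0.289% to 0.307% with CW069 and 0.294% to 0.350% in Control. The highest of these shares is that of Control 3, a library that stands apart. The 15 elongating spermatid markers, all tested, summed to 21888 to 25656 CPM (counts scaled to library size with TMM factors) with AZ82, 18080 to 20761 CPM with CW069 and 10185 to 23350 CPM in Control, with the low end in Control 3. Their median log2 level in Control 3 lay 0.99 below the mean of the 9 libraries. The 22 spermatocyte markers, genes of the stage that goes into the meiotic divisions, summed to 4322 to 4661 CPM with AZ82, 4448 to 4612 CPM with CW069 and 4169 to 4607 CPM in Control. The 15 spermatogonial markers summed to 1311 to 1320 CPM with AZ82, 1281 to 1354 CPM with CW069 and 1390.2 to 1419 CPM in Control, so that both inhibitor groups lay below Control. The 14 round spermatid markers summed to 2986 to 3153 CPM with AZ82, 2884 to 3101 CPM with CW069 and 2714 to 2902 CPM in Control, with AZ82 above Control. Of the somatic lists, the 14 Leydig cell markers summed to 1805 to 2118 CPM with AZ82, 1708 to 1785 CPM with CW069 and 2056 to 2208 CPM in Control, with CW069 below Control. The 15 Sertoli cell markers summed to 1206 to 1327 CPM with AZ82, 1181 to 1478 CPM with CW069 and 1340.3 to 1398 CPM in Control, with AZ82 below Control. The part of these cell type signals in the members' values was not tested. In bulk RNA, fewer cells of a stage and less RNA per cell cannot be told apart.

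For most spindle checkpoint and kinetochore genes, the 95% interval of the difference in bulk RNA between treated and Control libraries lay within 1.5-fold. None was called changed. Each interval is for 1 gene alone, and the count of such intervals was not planned. No member passed an adjusted p of 0.05 in any of the 4 comparisons (edgeR's quasi-likelihood test, 0 of 51 each). The background was 0% of 15834 tested genes called for AZ82 against Control, 0% for CW069 against Control, 0% for CW069 against AZ82 and 0.00632% for both inhibitors against Control. DESeq2 and limma-voom also called 0 members in each comparison. Over all 15834 tested genes, DESeq2 called 6, 28, 13 and 15 in the same order of comparisons, and limma-voom called 1, 0, 0 and 1. At an unadjusted p under 0.05, edgeR gave 0 members for AZ82 against Control (8.84% of tested genes) and 1 for CW069 against Control (7.34%). It gave 1 for CW069 against AZ82 (4.97%) and 0 for both inhibitors against Control (9.57%). The smallest adjusted p of any member was 0.568, 0.680, 0.998 and 0.524 in these 4 comparisons by edgeR.

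The 95% interval of the fold change lay within 1.5-fold either way for 49 of 51 members with AZ82 (68.8% of tested genes), for 47 with CW069 (70.4%), for 48 between CW069 and AZ82 (71.1%) and for 49 with both inhibitors (75.5%). The interval reached a median of 0.20 to either side on the log2 scale over the members, against 0.28 over all tested genes, for each inhibitor against Control. The members' median level was 46.8 CPM, against 18.7 CPM over all tested genes. Their median SD within groups was 0.11 on the log2 scale, against 0.15. Intervals that reached past 1.5-fold belonged to Cenpt and Sgo1 for AZ82, and to Cenpt, Sgo1, Ska3 and Cenpa for CW069.

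The median log2 fold change (inhibitor over Control) over the members was -0.030 for AZ82 and -0.023 for CW069 against Control, and over all tested genes it was -0.0010 and -0.0038. Both inhibitors against Control gave a member median of -0.028, with 31 of 51 members below 0 (50.9% of tested genes). CW069 against AZ82 gave -0.019, with 32 below 0 (50.4%). The 2 comparisons with Control share the same 3 Control libraries. Values below 0 were found in 29 of 51 members for AZ82 (50.3% of tested genes) and in 32 for CW069 (51% of tested genes). Control 3 had the highest value of its group in 32 of the 51 members. The same share over all tested genes was not counted, so this is not known to be particular to the members. Without that library the member median was 0.014 for AZ82 and 0.019 for CW069.

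**Figure D1:**
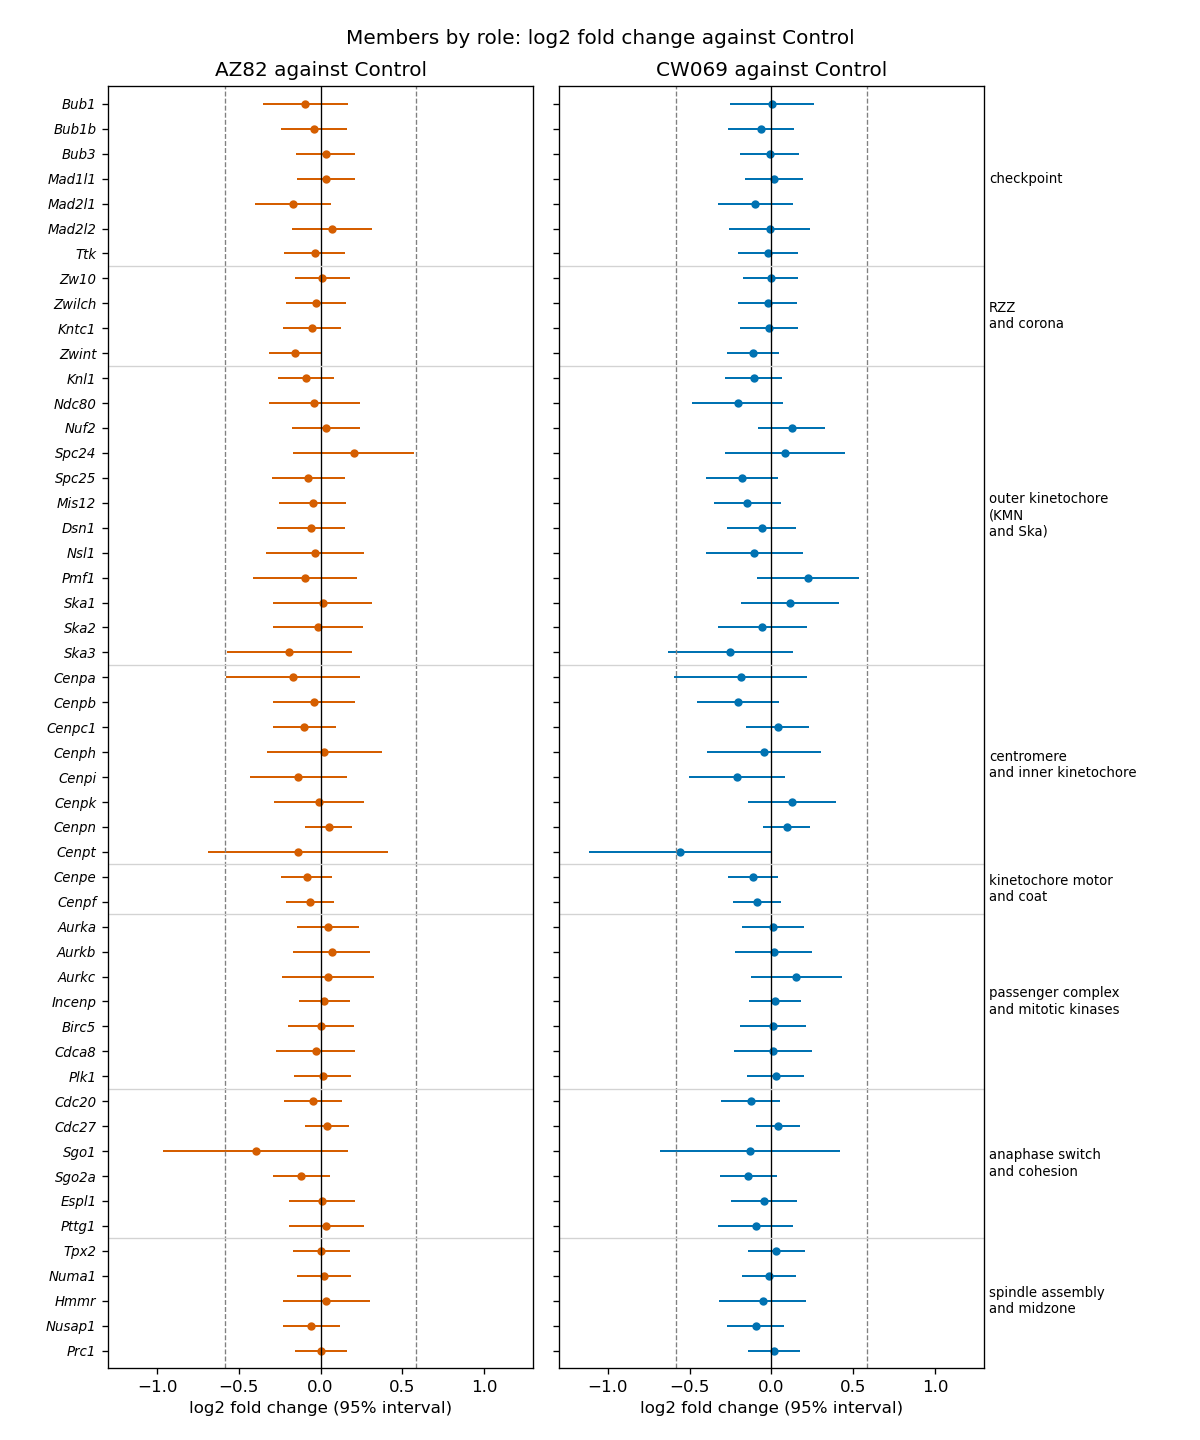
Log2 fold change of each of the 51 members against Control (x axis, with 95% intervals derived from the edgeR fit), for AZ82 on the left and CW069 on the right, ordered by role down the page. Dashed lines mark 1.5-fold either way. Most intervals lie inside the dashed lines in both panels, 49 of 51 for AZ82 and 47 of 51 for CW069, and Cenpt and Sgo1 have the widest.

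The core checkpoint genes had library ranges that overlapped between groups. Bub1b, which encodes the checkpoint protein BubR1, had 101, 87.8 and 94.2 CPM in the AZ82 libraries, 92.9, 94.5 and 91.2 CPM in the CW069 libraries and 86.9, 93.0 and 111 CPM in the Control libraries. Ttk, the Mps1 kinase that starts checkpoint signalling, had 68.0, 71.5 and 67.4 CPM with AZ82, 76.1, 69.5 and 63.3 CPM with CW069 and 64.3, 73.6 and 74.0 CPM in Control. Neither gene showed a group that stood apart. Mad2l1, the Mad2 protein that binds Cdc20, had 15.6, 15.4 and 15.9 CPM with AZ82, 17.6, 15.1 and 16.5 CPM with CW069 and 15.4, 19.4 and 17.9 CPM in Control. The AZ82 libraries of Mad2l1 lay near the low end of the Control range, and the log2 fold change was -0.17 ± 0.10 (SE; 95% interval -0.40 to 0.061), with unadjusted p = 0.134, adjusted p = 0.627 by edgeR. It was -0.25 without Control 1 and -0.096 without Control 2. Bub1, the kinase that brings shugoshin to centromeres, ranged over 83.6 to 117 CPM in the 9 libraries. Bub3, which carries Bub1 and BubR1 to kinetochores, ranged over 61.8 to 75.4 CPM. Mad1l1, the partner that presents Mad2 at unattached kinetochores, ranged over 21.5 to 24.9 CPM. None of these 3 genes had an interval past 1.5-fold in any comparison. Mad2l2, a Mad2 paralog known for its part in DNA polymerase zeta and in repair, had 218, 159 and 168 CPM with AZ82, 172, 163 and 180.4 CPM with CW069 and 164, 169 and 186 CPM in Control. Its highest value was that of AZ82 1, and the other 8 libraries lay below it.

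Of the Rod-Zw10-Zwilch complex, which loads dynein onto kinetochores, Zw10 ranged over 37.1 to 44.9 CPM, Zwilch over 45.8 to 54.5 CPM and Kntc1, the Rod subunit, over 55.2 to 64.2 CPM. Zwint, which links the complex to Knl1, had 61.8, 65.5 and 62.6 CPM in the AZ82 libraries, 68.5, 65.2 and 62.5 CPM in the CW069 libraries and 72.5, 64.7 and 74.6 CPM in the Control libraries. The AZ82 libraries overlapped the lowest Control library alone. Its log2 fold change was -0.16 ± 0.072 (SE; 95% interval -0.32 to 0.0014) for AZ82, with unadjusted p = 0.0517, adjusted p = 0.568, and -0.13 ± 0.062 (SE; 95% interval -0.27 to 0.0026) for both inhibitors, with unadjusted p = 0.0537, adjusted p = 0.524 by edgeR. Neither value passed the test, although both were the smallest p of the members in those comparisons.

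The outer kinetochore is the plate that binds microtubules: Knl1 is a scaffold for Bub proteins, the Ndc80 complex grips the microtubule, and the Mis12 complex ties both to the centromere. Knl1 had 45.8, 41.6 and 50.7 CPM in the AZ82 libraries, 45.5, 44.8 and 46.0 CPM in the CW069 libraries and 48.5, 47.2 and 51.2 CPM in the Control libraries. Every CW069 library of Knl1 was below every Control library, by small amounts. Ndc80 had 24.0, 27.4 and 32.3 CPM with AZ82, 28.1, 25.7 and 21.0 CPM with CW069 and 27.4, 28.4 and 30.1 CPM in Control, with CW069 3 the lowest and AZ82 3 the highest. Its log2 fold change was -0.21 ± 0.13 (SE; 95% interval -0.48 to 0.073) for CW069 against Control, with unadjusted p = 0.132, adjusted p = 0.733 by edgeR. CW069 against AZ82 gave -0.17 ± 0.13 (SE; 95% interval -0.45 to 0.11) for the same gene, with unadjusted p = 0.215, adjusted p = 0.999 by edgeR. Leaving out CW069 3 gave -0.093 against Control and -0.054 against AZ82, and leaving out CW069 1 gave -0.30 against Control. For CW069 against AZ82 the value was -0.050 without AZ82 3, -0.26 without AZ82 1 and -0.26 without CW069 1.

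Spc25, a subunit at the inner end of the Ndc80 complex, had 15.9, 19.2 and 18.8 CPM with AZ82, 17.3, 16.6 and 16.3 CPM with CW069 and 20.6, 17.5 and 18.7 CPM in Control. The CW069 libraries were all below Control, while the AZ82 libraries overlapped both. The log2 fold change for CW069 was -0.18 ± 0.10 (SE; 95% interval -0.40 to 0.040), with unadjusted p = 0.0988, adjusted p = 0.708 by edgeR, and -0.11 without Control 1. Without Control 2 the value of Spc25 was -0.24. Spc24, its partner, had 7.79, 6.57 and 6.28 CPM with AZ82, 5.204, 6.16 and 7.55 CPM with CW069 and 5.73, 6.74 and 5.45 CPM in Control, and the groups overlapped. For AZ82 its log2 fold change was 0.20 ± 0.17 (SE; 95% interval -0.17 to 0.57), with unadjusted p = 0.251, adjusted p = 0.709 by edgeR. The library with the most Spc24 was AZ82 1, and without it the value was 0.10. Without Control 2 the value was 0.29. Nuf2, which pairs with Ndc80, ranged over 63.1 to 82.6 CPM.

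Of the Mis12 complex, Mis12 ranged over 11.8 to 14.7 CPM, Dsn1 over 34.9 to 43.9 CPM and Nsl1 over 5.96 to 7.79 CPM. Pmf1, its remaining subunit, had 11.6, 13.9 and 11.7 CPM with CW069, against 8.66, 10.7 and 10.5 CPM with AZ82, and the Control libraries had 10.01, 9.37 and 12.5 CPM. All CW069 libraries of Pmf1 were above all AZ82 libraries. The log2 fold change of CW069 against AZ82 was 0.32 ± 0.14 (SE; 95% interval 0.0041 to 0.63), with unadjusted p = 0.0475, adjusted p = 0.998 by edgeR. This is the 1 member with an unadjusted p under 0.05 in that comparison, and it did not pass the adjusted test. The Ska complex, which helps the plate hold on to shortening microtubules, had 5.99 to 7.80 CPM for Ska1, 5.13 to 5.998 CPM for Ska2 and 5.54 to 8.58 CPM for Ska3.

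Cenpt showed the widest spread of all members and the largest fold change. It encodes an inner kinetochore protein that recruits the Ndc80 complex. It had 22.3, 12.3 and 12.2 CPM in the AZ82 libraries, 10.9, 11.98 and 12.1 CPM in the CW069 libraries and 16.6, 12.6 and 22.3 CPM in the Control libraries. High values stood in 1 AZ82 and 1 Control library, AZ82 1 and Control 3, and the CW069 libraries were below all others, by little in the case of AZ82 2, AZ82 3 and Control 2. The log2 fold change for CW069 against Control was -0.56 ± 0.25 (SE; 95% interval -1.11 to -0.0029), with unadjusted p = 0.0490, adjusted p = 0.680 by edgeR. Leaving out Control 3 gave -0.32, and leaving out Control 2 gave -0.74. Against AZ82 it was -0.42 ± 0.25 (SE; 95% interval -0.98 to 0.14), with unadjusted p = 0.127, adjusted p = 0.999 by edgeR. That became -0.070 without AZ82 1 and -0.57 without AZ82 3. Both inhibitors against Control gave -0.35 ± 0.21 (SE; 95% interval -0.82 to 0.12), with unadjusted p = 0.132, adjusted p = 0.607 by edgeR. That value was -0.11 without Control 3, -0.53 without Control 2 and -0.52 without AZ82 1. The SD within groups of its log2 level was 0.37, the highest of the 51 members.

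At the centromere itself, Cenpa, the histone H3 variant that marks the site, had 2.69, 3.14 and 3.03 CPM with AZ82, 3.63, 2.53 and 2.61 CPM with CW069 and 3.38, 3.402 and 3.19 CPM in Control. The AZ82 libraries were below Control, the CW069 libraries lay on both sides of it, and raw counts of 37 to 53 per library limit what can be told of this gene. Cenpb, which binds a motif of centromeric satellite DNA, had 20.1, 19.2 and 22.7 CPM with AZ82, 18.5, 20.5 and 16.6 CPM with CW069 and 23.4, 21.7 and 18.7 CPM in Control. Its log2 fold change was -0.20 ± 0.11 (SE; 95% interval -0.45 to 0.050) for CW069 against Control, with unadjusted p = 0.105, adjusted p = 0.711, and -0.16 ± 0.11 (SE; 95% interval -0.41 to 0.093) for CW069 against AZ82, with unadjusted p = 0.191, adjusted p = 0.999 by edgeR. Against Control it was -0.13 without CW069 3, -0.13 without Control 1 and -0.29 without Control 3. Against AZ82 it was -0.085 without CW069 3, -0.088 without AZ82 3 and -0.23 without CW069 2. Cenpc1, the protein that joins the centromere to the Mis12 complex, had 47.5, 48.7 and 49.9 CPM with CW069, against 40.5, 49.3 and 43.0 CPM with AZ82. The Control libraries of Cenpc1 had 44.0, 51.5 and 46.6 CPM, and the log2 fold change of CW069 against AZ82 was 0.14 ± 0.087 (SE; 95% interval -0.055 to 0.33), with unadjusted p = 0.143, adjusted p = 0.999 by edgeR. It was 0.077 without AZ82 1 and 0.22 without AZ82 2. The groups overlapped in Cenpb and Cenpc1. Cenpi, a scaffold subunit of the inner kinetochore, had 7.79, 10.8 and 9.96 CPM with AZ82, 9.31, 8.76 and 9.09 CPM with CW069 and 11.3, 9.56 and 10.6 CPM in Control. Its log2 fold change for both inhibitors was -0.17 ± 0.11 (SE; 95% interval -0.43 to 0.081), with unadjusted p = 0.162, adjusted p = 0.633 by edgeR, and -0.11 without AZ82 1. Without Control 2 the value of Cenpi was -0.24. The other inner subunits ranged over 3.92 to 5.07 CPM for Cenph, 9.60 to 12.6 CPM for Cenpk and 165 to 197 CPM for Cenpn, which binds the Cenpa nucleosome.

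Cenpe, a kinesin that carries chromosomes to the spindle equator, had 118, 129 and 113 CPM with AZ82, 122, 116 and 114 CPM with CW069 and 122, 125 and 134 CPM in Control. The CW069 libraries were below all Control libraries, narrowly, and the AZ82 libraries overlapped them. The log2 fold change for both inhibitors was -0.10 ± 0.060 (SE; 95% interval -0.23 to 0.035), with unadjusted p = 0.131, adjusted p = 0.607 by edgeR, and -0.061 without Control 3. Without AZ82 2 the value of Cenpe was -0.13. Cenpf, a large coat protein of the outer kinetochore, ranged over 167 to 195 CPM.

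The kinases and the passenger complex, which corrects faulty attachments, showed no group that stood apart. Aurka, which acts at spindle poles, had 191, 167 and 158 CPM with AZ82, 179.6, 172 and 152 CPM with CW069 and 163, 172 and 165 CPM in Control. Aurkb, the passenger kinase of mitosis, had 14.3, 12.5 and 13.4 CPM with AZ82, 12.4, 13.3 and 13.01 CPM with CW069 and 11.3, 13.8 and 13.2 CPM in Control. Aurkc, its paralog of meiotic cells, had 19.0, 20.0 and 19.0 CPM with AZ82, 19.7, 19.2 and 23.5 CPM with CW069 and 17.2, 22.5 and 16.5 CPM in Control. In all 3 kinases the groups overlapped. Incenp, the scaffold of the passenger complex, had 62.9, 56.4 and 60.4 CPM with AZ82, 60.7, 58.8 and 60.2 CPM with CW069 and 55.4, 58.1 and 63.5 CPM in Control. Birc5, or survivin, which targets the complex to centromeres, had 47.0, 38.3 and 39.3 CPM with AZ82, 43.6, 40.4 and 41.3 CPM with CW069 and 38.0, 42.6 and 43.8 CPM in Control. Plk1, a kinase of entry into and exit from division, had 105, 93.8 and 94.2 CPM with AZ82, 94.6, 101 and 100.01 CPM with CW069 and 99.2, 87.2 and 104 CPM in Control. Log2 fold changes of the 7 genes of this class, Cdca8 (borealin, 48.2 to 63.6 CPM) included, ran from -0.030 to 0.069 for AZ82 and from 0.0090 to 0.15 for CW069.

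**Figure D2:**
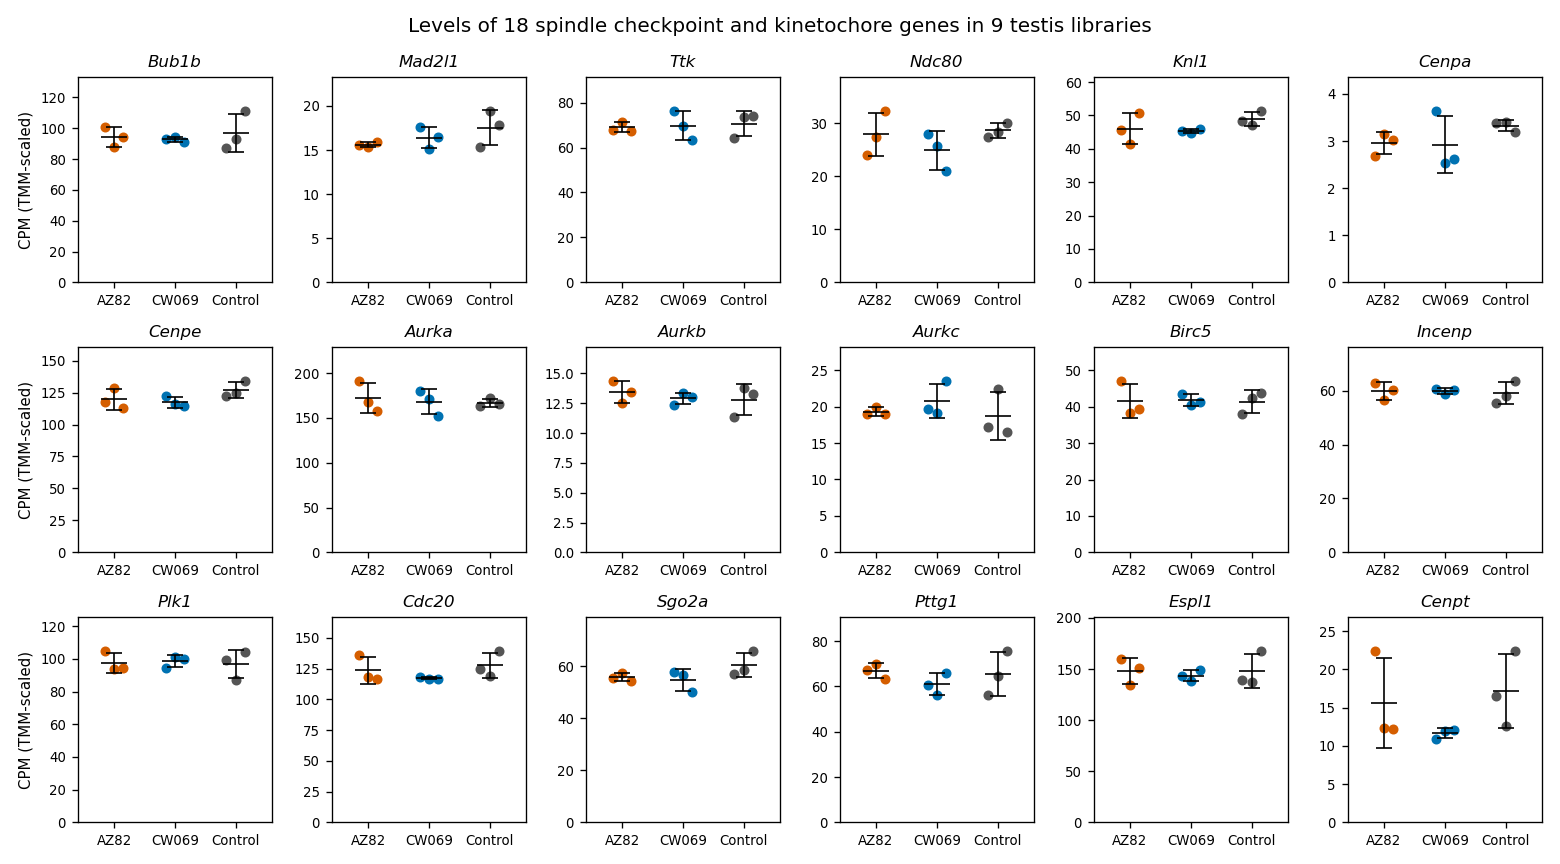
Level of 18 members in each library (y axis, CPM scaled by TMM; points are libraries, bars the mean and SD of 3), with AZ82, CW069 and Control from left to right. Ranges of the 3 groups overlap in most panels, and the panel of Cenpt shows 1 high AZ82 library at 22.3 CPM and 1 high Control library at 22.3 CPM.

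Among genes of the switch to anaphase, Cdc20, which the checkpoint holds back, had 136, 118 and 116 CPM in the AZ82 libraries, 118, 116 and 117 CPM in the CW069 libraries and 125, 119 and 139 CPM in the Control libraries. The CW069 libraries lay close together, just below the lowest Control library. Pttg1, the securin that restrains separase, had 67.5, 70.1 and 63.5 CPM with AZ82, 60.8, 56.4 and 66.2 CPM with CW069 and 56.2, 64.5 and 75.5 CPM in Control. Espl1, the separase that cuts cohesin, had 159.9, 135 and 151 CPM with AZ82, 143, 138 and 149 CPM with CW069 and 139, 138 and 167 CPM in Control. Control 3 was the highest of its group for Cdc20, Pttg1 and Espl1 alike. Cdc27, a core subunit of the anaphase-promoting complex, ranged over 225 to 248 CPM and had the smallest SD within groups of all members. Its AZ82 libraries were above all Control libraries, at a log2 fold change of 0.041 ± 0.060 (SE; 95% interval -0.093 to 0.17) with unadjusted p = 0.515, adjusted p = 0.844 by edgeR.

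The shugoshins, which protect cohesin at centromeres, are a pair with different use. Sgo2a, the one known to act in meiosis, had 55.4, 57.4 and 54.5 CPM with AZ82, 58.0, 56.6 and 50.1 CPM with CW069 and 57.2, 58.5 and 65.8 CPM in Control. Of the 6 inhibitor libraries, 4 lay below the lowest Control library. The log2 fold change was -0.12 ± 0.079 (SE; 95% interval -0.29 to 0.057) for AZ82, with unadjusted p = 0.165, adjusted p = 0.653 by edgeR. For CW069 it was -0.14 ± 0.079 (SE; 95% interval -0.31 to 0.033), with unadjusted p = 0.101, adjusted p = 0.710, and for both -0.13 ± 0.068 (SE; 95% interval -0.28 to 0.021), with unadjusted p = 0.0842, adjusted p = 0.555 by edgeR. Without Control 3 the 3 values were -0.057, -0.077 and -0.067, and without CW069 3 the value for CW069 was -0.079. Without Control 1 they were -0.16 for AZ82 and -0.17 for both, and without CW069 1 the value for CW069 was -0.18. In GENCODE vM21, 35.0% of the exon bases of Sgo2a lie opposite exons of Kctd18. No source here says whether counting used the strand, so the effect of this overlap on the Sgo2a count is not known. Kctd18 averaged 17.7 CPM. Sgo1, the shugoshin of mitosis, was the least expressed member per kb of principal transcript. With the union of exons as length, Cenpa was lower, at 0.524 against 0.756 CPM per kb for Sgo1. Sgo1 had 1.89, 2.86 and 2.598 CPM with AZ82, 3.22, 2.81 and 2.84 CPM with CW069 and 4.49, 2.44 and 2.79 CPM in Control. Control 1 was the highest library. The log2 fold change for AZ82 was -0.40 ± 0.26 (SE; 95% interval -0.96 to 0.17), with unadjusted p = 0.150, adjusted p = 0.641 by edgeR. It was -0.093 without Control 1, -0.24 without AZ82 1 and -0.57 without Control 2. Raw counts of Sgo1 were 26 to 65 per library.

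Builders of the spindle overlapped between groups as well. Tpx2, which activates Aurka, ranged over 63.7 to 77.7 CPM, and Numa1, which focuses poles, over 83.7 to 98.3 CPM. Hmmr, a microtubule-binding partner of Tpx2, ranged over 17.7 to 25.2 CPM and Nusap1, a bundling protein, over 39.1 to 47.6 CPM. Prc1, which cross-links the midzone, ranged over 85.8 to 99.2 CPM. Log2 fold changes of these 5 genes ran from -0.057 to 0.035 for AZ82 and from -0.097 to 0.029 for CW069.

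Some members had libraries that did not overlap between groups. For AZ82, 1 member was above all Control libraries (Cdc27; 6.65% of tested genes) and 1 below (Cenpa; 8.62%). For CW069, 0 members were above (6.13%) and 7 below (7.24%): Knl1, Spc25, Mis12, Cenpi, Cenpt, Cenpe and Cdc20. That is 13.7% of the members, and 6 of these 7 had an unadjusted p above 0.05. Between CW069 and AZ82, 1 member was higher in CW069 (Pmf1; 5.52%) and 2 were lower (Mis12 and Cenpt; 5.8%). With both inhibitors pooled, 0 members stood apart from Control in either direction (2.19% higher and 2.92% lower).

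The 56 other tested genes of the spindle and kinetochore, a list chosen with earlier results known, gave 0 calls at an adjusted p of 0.05 in each of the 4 comparisons by edgeR. An unadjusted p under 0.05 was reached by 3 of them for AZ82 against Control (5.36%, against 8.84% of tested genes). It was reached by 4 for CW069 against Control (7.14%, against 7.34%) and by 2 for CW069 against AZ82 (3.57%, against 4.97%). For both inhibitors it was 3 (5.36%, against 9.57%). Each share was below that over all tested genes. For AZ82, Fzr1, the activator of the anaphase-promoting complex after anaphase, had a log2 fold change of 0.15 ± 0.062 (SE; 95% interval 0.012 to 0.29), with unadjusted p = 0.0358, adjusted p = 0.554 by edgeR. Anapc11, the RING subunit of that complex, had 0.27 ± 0.12 (SE; 95% interval 0.00035 to 0.54), with unadjusted p = 0.0498, adjusted p = 0.564, and Anapc1, its largest scaffold subunit, had -0.15 ± 0.065 (SE; 95% interval -0.30 to -0.0095), with unadjusted p = 0.0387, adjusted p = 0.554 by edgeR. Anapc11 had 49.1, 36.3 and 36.2 CPM with AZ82, 42.8, 39.2 and 37.3 CPM with CW069 and 31.8, 31.9 and 37.0 CPM in Control, with AZ82 1 the highest, and its value was 0.11 without that library. Without AZ82 3 the value of Anapc11 was 0.35. Subunits of 1 complex thus had values on both sides of 0. For CW069 against Control, Cenpq, an inner kinetochore subunit, had a log2 fold change of -0.30 ± 0.11 (SE; 95% interval -0.55 to -0.052), with unadjusted p = 0.0220, adjusted p = 0.642, and Cenpm, another, had -0.68 ± 0.28 (SE; 95% interval -1.297 to -0.053), with unadjusted p = 0.0361, adjusted p = 0.666 by edgeR. Mad2l1bp, which takes Mad2 off Cdc20, had -0.31 ± 0.14 (SE; 95% interval -0.61 to -0.0095), with unadjusted p = 0.0443, adjusted p = 0.675 by edgeR. That became -0.19 without Control 2 and -0.40 without Control 1. CW069 against AZ82 gave Cenpm at -0.76 ± 0.28 (SE; 95% interval -1.38 to -0.13), with unadjusted p = 0.0221, adjusted p = 0.965, and Mad2l1bp at -0.39 ± 0.14 (SE; 95% interval -0.69 to -0.093), with unadjusted p = 0.0151, adjusted p = 0.959 by edgeR. Both inhibitors against Control gave Anapc11 at 0.26 ± 0.11 (SE; 95% interval 0.021 to 0.50), with unadjusted p = 0.0355, adjusted p = 0.510, and Cenpq at -0.23 ± 0.10 (SE; 95% interval -0.44 to -0.017), with unadjusted p = 0.0367, adjusted p = 0.510 by edgeR.

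Cenpm varied widely within groups, with 6.51, 6.43 and 10.4 CPM with CW069, against 17.6, 11.6 and 10.6 CPM with AZ82, and 17.3, 11.2 and 9.18 CPM in Control. Its log2 fold change against Control was -0.38 without Control 1 and -0.95 without CW069 3. Against AZ82 it was -0.50 without AZ82 1 and -1.03 without CW069 3. Kifc1, the gene of the inhibited motor, had 9.39, 9.57 and 9.02 CPM with AZ82, 8.97, 9.24 and 10.5 CPM with CW069 and 8.42, 9.56 and 7.98 CPM in Control, with reads that its near copy Kifc5b can share.

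**Figure D3:**
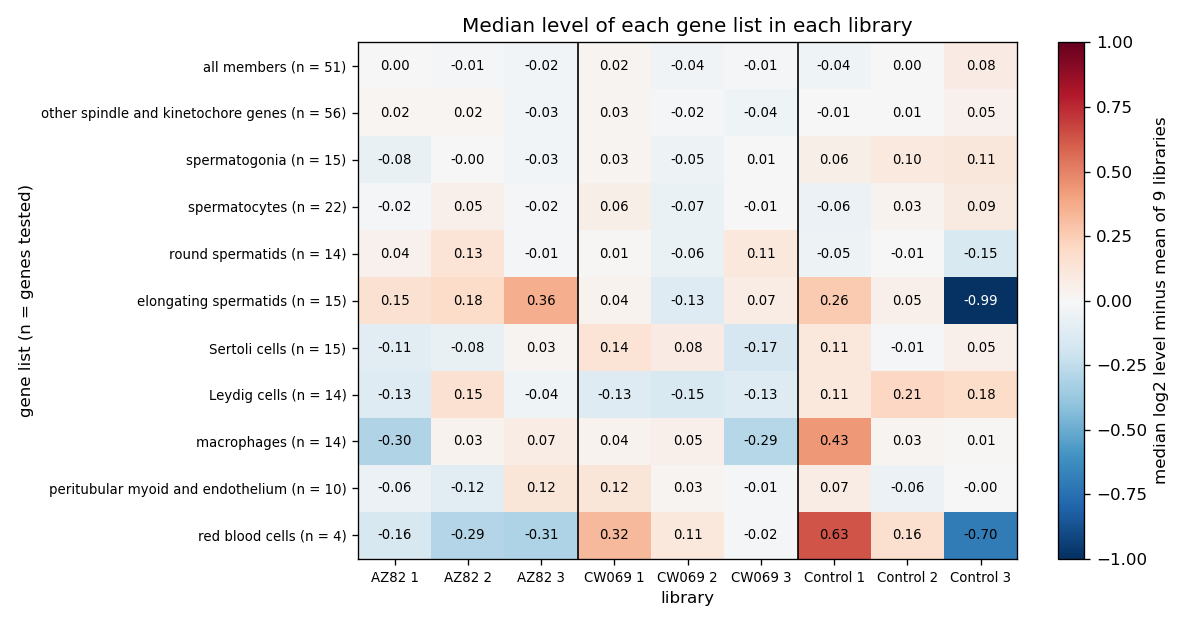
Median log2 level of each gene list in each library, as the difference from the mean of the 9 libraries (colour and number; rows are lists with the number of genes tested, columns the libraries by group). The members stay between -0.04 and 0.08 in all libraries, while elongating spermatid markers reach -0.99 in Control 3 and red blood cell genes range from -0.70 to 0.63.

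The levels of the members per kb of principal transcript spanned 144-fold, on a scale that depends on the length assumed for each gene. Levels were divided by the length of the longest principal transcript in GENCODE vM21 and averaged over the 9 libraries. The median was 14.7 CPM per kb over the members, against 6.615 CPM per kb over the 15195 tested genes with such a transcript, and 37 of the 51 members lay above the median of all tested genes. In the top 10% of tested genes were 5 members: Mad2l2 at 114, Cenpn at 104, Aurka at 88.6, Cdc20 at 68.5 and Pttg1 at 68.1 CPM per kb. The lowest were Mad2l1 at 2.19, Cenpa at 2.09, Ska2 at 1.79, Nsl1 at 1.46 and Sgo1 at 0.794 CPM per kb. For Mad2l1 the length taken was 7.557 kb, and by CPM alone it ranked 37 of the 51 members. Over the union of exons as length, Cenpa at 0.524 lay below Sgo1 at 0.756, and Cenpi at 1.70 below Mad2l1 at 1.97 CPM per kb. Of the 50 pairs of neighbours in this order, the library ranges overlapped in 45. The 5 that did not overlap were Aurka above Cdc20, Pttg1 above Plk1, Cdc27 above Cdca8, Espl1 above Incenp and Ska2 above Nsl1. These separations depend on the length used. By the union of exons instead, Pttg1 at 32.3 lay below Plk1 at 44.4, and Aurka at 66.7 was near Cdc20 at 65.8 CPM per kb. The other pairs kept their order by that length.

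**Figure D4:**
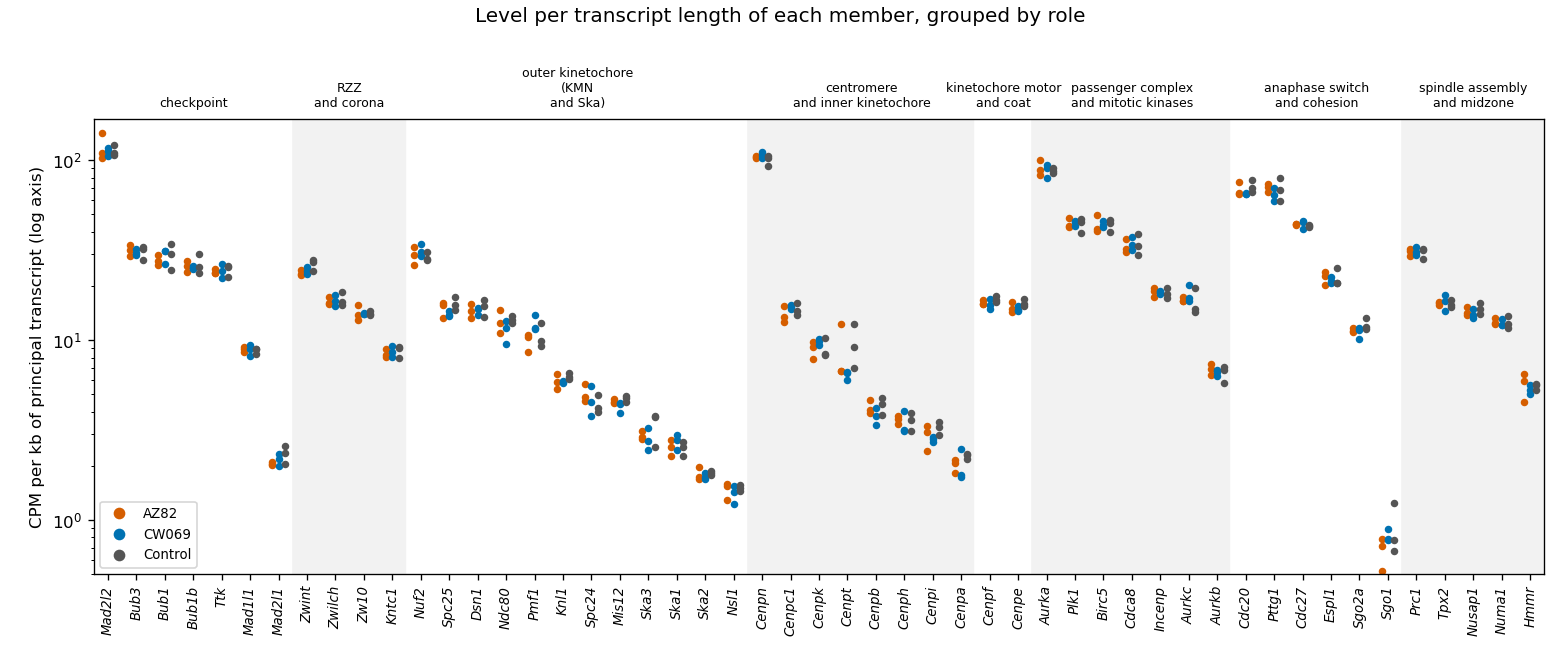
Level of each of the 51 members per kb of principal transcript (y axis, CPM per kb, log axis), by role and, within a role, from high to low; each point is a library, coloured by group. The roles overlap widely. The checkpoint class alone runs from Mad2l2 at 114 CPM per kb (length 1.535 kb) to Mad2l1 at 2.19 CPM per kb (length 7.557 kb).

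Subunits that work in fixed numbers in 1 complex did not always have equal levels per kb, and such ratios depend on the transcript length assumed for each gene. With the union of exons as length, 7 of the ratios computed crossed 1, 13 others moved by at least their SD over the 9 libraries, and 2 moved by less. The ratios of the Ndc80 and Mis12 complexes given here stayed above 1. Within the Ndc80 complex, Nuf2 stood above Ndc80 in all 9 libraries. The ratio was 2.35 ± 0.0830 with AZ82, 2.81 ± 0.246 with CW069 and 2.22 ± 0.0223 in Control (SD, n = 3 each). The CW069 libraries, at 2.69, 2.65 and 3.095, were above all others; this ratio was picked out after its values were seen and has no test. Nuf2 over Spc24 was 4.60 to 9.01, and Spc25 over Spc24 was 2.34 to 4.12. In the Mis12 complex, Dsn1 over Mis12 was 2.75 to 3.85 and Dsn1 over Nsl1 was 8.62 to 12.2. The groups overlapped in each of these 4 ratios.

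Paralogs were also unequal, in the same direction in every library. Aurkc over Aurkb was 2.44 ± 0.237 with AZ82, 2.72 ± 0.312 with CW069 and 2.47 ± 0.332 in Control, above 1 in 9 of 9 libraries. Aurka over Aurkb averaged 13.3 over the 9 libraries. Sgo2a over Sgo1 was 17.2 ± 3.73 with AZ82, 13.7 ± 0.997 with CW069 and 14.8 ± 4.68 in Control, with the range of 9.37 in Control 1 to 21.5 in AZ82 1. Mad2l2 over Mad2l1 was 43.0 to 68.8, with lengths of 1.535 kb for Mad2l2 and 7.557 kb for Mad2l1. Before division by length the 2 genes averaged 176 and 16.5 CPM. These 4 ratios were above 1 with either measure of length, and in each the groups overlapped.

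**Figure D5:**
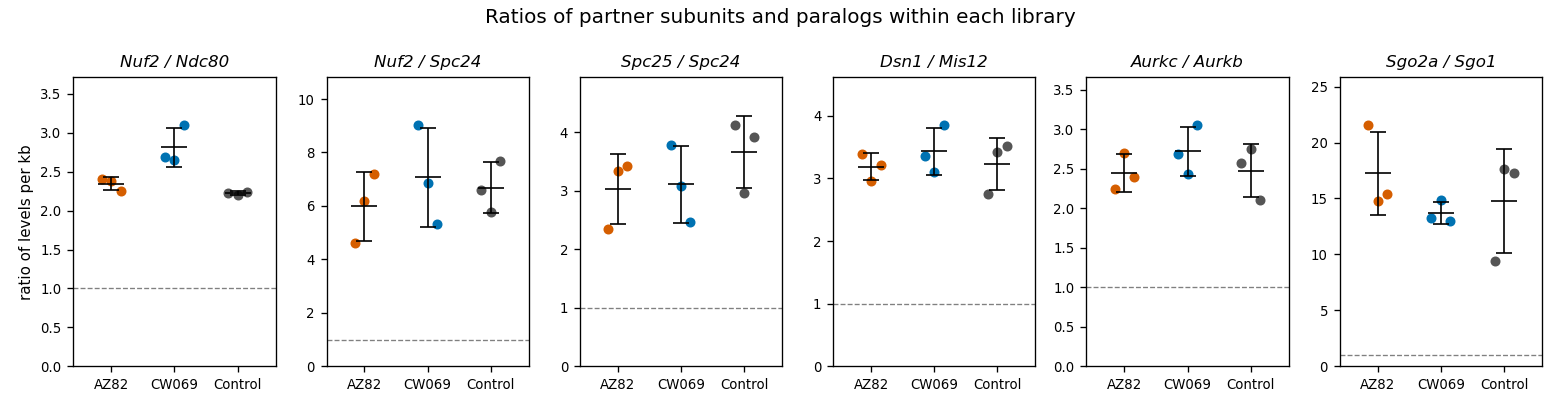
Ratio of the levels per kb of 6 pairs of members within each library (y axis, no unit; points are libraries, bars the mean and SD of 3), with AZ82, CW069 and Control from left to right; the dashed line marks 1. All 9 libraries lie above 1 in each panel, and CW069 lies above the other groups for Nuf2 over Ndc80.

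Overlap between genes can affect their counts. By GENCODE vM21, 15 members share exon bases with another gene, 11 of them with a tested gene and 1 on the same strand (Cenpb with Spef1, over 20 bases). Apart from Sgo2a, the largest share with a tested gene was 11.1% of the exon bases of Prc1, opposite Rccd1, which averaged 6.70 CPM. Cenpt shares 8 bases with Tsnaxip1, a gene at 341 CPM on average. How such overlaps change the counts of these genes was not tested.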

How the data were processed

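The 9 libraries are stranded mRNA libraries of mouse testis. The authors deposited raw, unnormalized read counts by gene, and the labels' protocols name the stranded kit. Trimmomatic, HISAT2, HTSeq and the build GRCm39 are named in the submitters' processing notes; their settings, the strand setting included, are not given in the sources used here. The joint table and the separate library files held identical counts in all 19991 genes. No pair of libraries agreed within sampling noise (chi-square per gene of 3.34 or more). Counts were filtered with filterByExpr by group, scaled with TMM and modelled with edgeR 4.0.16 under R 4.3.3, using 1 coefficient for each group and leaving 6 residual degrees of freedom. The two-sided quasi-likelihood F test was adjusted by Benjamini-Hochberg over 15834 genes, with calls made at an adjusted p under 0.05. The procedure was tested on simulated data. DESeq2 1.42.0 and limma-voom (limma 3.58.1) were alternatives, with other scalings, filters and fits. Depth was 13856070 to 18102593 counts, and intervals rest on 3 libraries per group.

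Named members are those with an unadjusted p under 0.05 in a comparison or, where fewer than 5 qualify, the 5 with the smallest p, plus 17 chosen by role; genes of the other list are named at an unadjusted p under 0.05, except 1 that is not reported here. Members that did not overlap between groups, the highest and lowest levels and the subunit ratios were chosen after values were seen, and the ratios have no test. The count of intervals within 1.5-fold was not planned either. The members and lists were chosen with earlier results of these data known. Lengths and exon overlaps come from GENCODE vM21 and promoters from RefSeq, both on GRCm38, an earlier build than that of the counts, joined by gene symbol alone.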

Additional observations from a re-analysis of the deposited data

How the results depend on the processing

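In every setting run, 0 members were called, with each library left out in turn as well (0 to 0 in each of the 4 comparisons). The most genes called in any setting was 28 of 15834, for CW069 against Control by DESeq2. The genes named for their p-value in a comparison kept their sign there in every setting. Over all 51 members, library size alone changed the sign of 21 fold changes for AZ82, 12 for CW069, 16 for both inhibitors and 12 for CW069 against AZ82, and leaving out 1 library changed up to 15, 10, 12 and 13 in that order. With library size alone in place of TMM, the member medians were -0.11 for AZ82, -0.072 for CW069 and -0.093 for both inhibitors against Control, where the medians of all tested genes were -0.081, -0.051 and -0.067. The same scaling gave -0.24 for Zwint, -0.20 for Sgo2a, 0.13 for Spc24, 0.069 for Fzr1 and -0.23 for Anapc1 with AZ82, and -0.16 for Cenpe and -0.20 for Sgo2a with both inhibitors. Leaving out 1 library moved the median over -0.050 to 0.014 for AZ82, -0.059 to 0.019 for CW069, -0.048 to 0.0086 for both and -0.023 to 0.0085 for CW069 against AZ82; the upper end against Control came without Control 3. The number of members whose interval lay within 1.5-fold ran over 46 to 49, 45 to 48, 47 to 49 and 46 to 50 in the same order. Same-numbered libraries did not deviate together (correlations -0.17 to 0.047, against -0.105 to 0.19 for libraries with different numbers). With 3 libraries a group, these values cannot show whether the numbers pair the libraries. With the replicate number as a block, 0 members were called in each comparison. The medians were then -0.028 for AZ82, -0.022 for CW069, -0.024 for both and -0.021 for CW069 against AZ82. With the union of exons as length, an alternative chosen after seeing the data, 13 ratios moved by at least their SD over the 9 libraries without crossing 1. For 2 the change was smaller, and 7 ratios crossed 1. They were Mis12 over Pmf1 at 1.71 (0.423 with principal transcripts), Birc5 over Incenp at 0.887 (2.38), Cdca8 over Incenp at 0.772 (1.84), Bub1 over Bub3 at 2.32 (0.933), Bub1b over Bub3 at 2.25 (0.829), Cenpk over Cenph at 0.874 (2.63) and Ska1 over Ska3 at 1.03 (0.874). Depth limits Sgo1 and Cenpa most.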
